A study of Mus musculus with 20 samples.

Results

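6 genes that carry fatty acids and lipoprotein lipids across or into endothelial cells (EC) were described here: Lpl, Gpihbp1, Cd36, Scarb1, Fabp4 and Fabp5. They were the 6 rows of a count table of 55866 genes whose gene name is on this list. The list was drawn up by function, with earlier results of these data known. Shares of its genes set beside shares of all genes are therefore a description, not a test. All 6 passed the filter on low counts in every comparison. The label of the list, endothelial, was set beside the data: relative to whole tumor, the endothelial fraction was higher for 4 of the 6 genes, beside 19.6% of the 14488 genes tested, and the difference did not pass the test for Lpl and Fabp5.

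Capillary EC are the gate through which fat in the blood reaches the tissue. Lipoprotein lipase (Lpl) is made mainly by parenchymal cells, adipocytes and macrophages, and is carried to the lumen of capillaries by Gpihbp1, which holds it there while it releases fatty acids from triglyceride-rich lipoproteins. Cd36 takes up long-chain fatty acids and oxidized lipoproteins, Scarb1 (SR-BI) is the receptor for high-density lipoprotein, and Fabp4 and Fabp5 are small proteins that bind fatty acids in the cytosol. Adipocytes and macrophages also express Cd36, Fabp4, Fabp5 and Lpl, so none of these genes except Gpihbp1 is a marker of EC alone.

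The libraries came from Py8119 tumors, a murine mammary carcinoma line, grown in a mammary fat pad of female RiboTag mice (Rpl22HA/HA x Cdh5CreERT2, C57BL/6J). In these mice the Cdh5 promoter drives a tamoxifen-dependent Cre, and the ribosomal protein Rpl22 carries an HA tag in the cells in which Cre has acted, so that anti-HA immunoprecipitation (IP) recovers ribosome-bound mRNA of EC. All mice carried both alleles and received 75 mg/kg tamoxifen for 5 days from 3 weeks of age, tumor cells at 8 weeks and then, for 10 days, 2 times a week, 25 mg/kg intravenously of either the Notch4-blocking antibody 6-3-A6 or control mouse IgG. Treatment began at a tumor volume of about 30 mm3 by the sample protocol and 50 mm3 by the series text. From each of 10 tumors, 5 per treatment, the homogenate (input) and the IP were sequenced, which gave 4 groups of 5 libraries.

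Libraries held between 11881214 and 26728205 counts on genes. Levels are given as CPM, counts scaled to a common library size with TMM factors, and 3 counts, the limit that a count of 0 allows, were worth 0.104 to 0.315 CPM. The 16 endothelial markers that passed the filter were all higher in IP than in input (log2 fold change 3.16 to 5.42; Ecscr, the marker left, was at 0 in every library). One of them, Egfl7, passed the filter through its IP libraries alone. Their summed level was 1139.9 to 6552 CPM in IP and 157 to 272 CPM in input. Over all genes 19.6% were called higher and 20.8% lower in IP. Macrophage markers were still present in IP, at a summed 3317 to 9229 CPM against 6552 to 15448 CPM in input, with 9 of 13 lower in IP and 4 not called (Itgam was at 0 in every library). A pair of IP libraries stood low in endothelial markers, 6-3-A6 IP 2 (1139.9 CPM) and control IgG IP 4 (1428 CPM). The study kept 6 IP libraries for its treatment comparison (control IgG 2, 4 and 5, and 6-3-A6 1, 3 and 4) after outliers on a principal component analysis had been removed, and the treatment comparison is given with these 6 and with all 10. By its methods, treated and control libraries separated more clearly on that analysis once the outliers were gone, and whether this separation entered the choice is not stated. P-values from the 6 libraries do not account for the choice.

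Fabp4 and Fabp5 are close relatives that lie near each other on chromosome 3, so the reads of one could in principle be counted on the other. The 100-base stretch of coding sequence in which they are most alike without gaps is shown because the reads were 100 bases long. It runs from base 263 to 362 of the Fabp4 coding sequence and from base 269 to 368 of that of Fabp5 (transcripts of GRCm38). Capitals mark the 71 of 100 bases that are identical.
Fabp4: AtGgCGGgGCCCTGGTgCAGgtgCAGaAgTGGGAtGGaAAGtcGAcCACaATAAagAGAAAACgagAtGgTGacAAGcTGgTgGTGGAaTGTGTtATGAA
Fabp5: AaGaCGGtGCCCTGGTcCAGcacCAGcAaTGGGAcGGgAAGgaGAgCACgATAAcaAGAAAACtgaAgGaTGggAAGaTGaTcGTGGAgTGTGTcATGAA
Even in this stretch the pair differed at many positions over the length of 1 read. Fabp5 also has 2 near-copies elsewhere in the genome (Gm6166, 98.3% identical over 409 bases, and Gm14328). Both held 0 counts in all 20 libraries, so how reads shared with them were placed cannot be seen in the table, and Fabp5 levels are uncertain to that extent. Lpl shared a stretch of at most 184 bases with 44 other genes at 95% identity or more, and Gpihbp1, Cd36, Scarb1 and Fabp4 shared none of 100 bases or more.

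The first question was how much each gene was enriched in endothelial ribosomes over the whole tumor. Gpihbp1 rose 30.6-fold, Fabp4 8.08-fold, Cd36 5.95-fold and Scarb1 2.31-fold in IP (edgeR quasi-likelihood test, adjusted p under 0.05 for all 4), and Lpl and Fabp5 did not pass the test. The 4 calls compare with 40.4% of all 14488 genes called in either direction and 19.6% called higher. This fit has no term for the tumor that IP and input share. With the tumor as a block the same 4 genes were called, beside 51.0% of all genes in either direction and 24.8% higher. In the input libraries, fewer EC in the tumor and less of an mRNA per EC cannot be told apart.

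**Figure D1:**
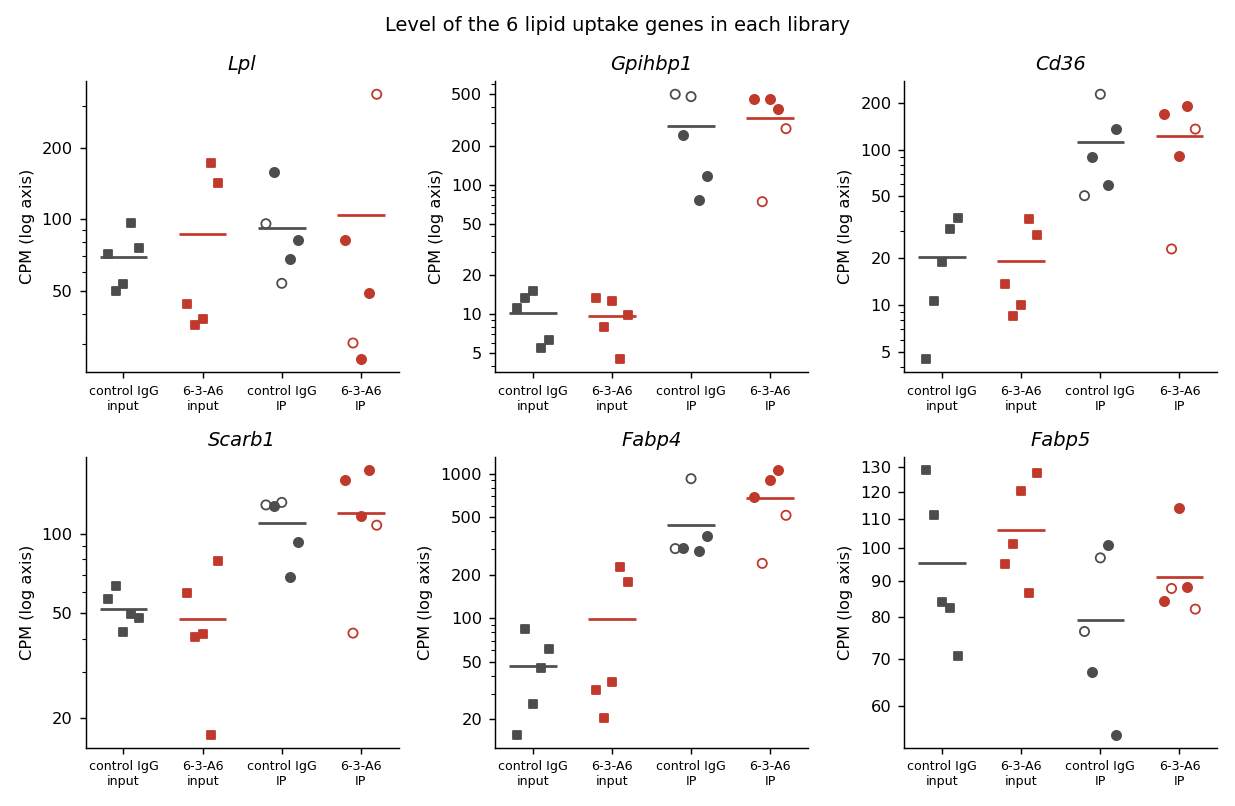
Level of each gene in CPM on a log axis in the 4 groups; each point is 1 library, squares are input, filled circles are IP libraries kept by the study, open circles the other IP libraries, and horizontal lines are group means. Gpihbp1 in IP lay between 73.8 and 498 CPM, above all input libraries (4.52 to 15.0 CPM). The ranges of Cd36, Scarb1, Lpl and Fabp5 overlapped between IP and input.

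Gpihbp1 (GRCm39, chr15:75468477-75471330, plus strand), the capillary anchor of lipoprotein lipase, was at 11.2, 13.3, 15.0, 5.43 and 6.29 CPM in control IgG input 1 to 5 and at 13.2, 7.91, 12.6, 4.52 and 9.88 CPM in 6-3-A6 input 1 to 5. In IP it stood at 498, 242, 477, 76.3 and 116 CPM with control IgG and at 459.9, 73.8, 455, 384 and 270.2 CPM with 6-3-A6. The lowest IP library (73.8 CPM) lay far above the highest input library (15.0 CPM), and the low IP libraries, control IgG 4 and 5 and 6-3-A6 2, were the 3 that stood lowest in endothelial markers. The difference between IP and input was a log2 fold change of 4.94 (SE 0.40, 95% interval 4.10 to 5.77, edgeR adjusted p = 2.24e-09), within the range of the endothelial markers and higher than in 99.86% of the genes tested. Groups that do not overlap in this direction were found for 4.34% of all genes. In single tumors the ratio of IP to input was between 9.33 and 85.0, with a median of 29.6, beside 4.30 to 32.9 for Pecam1, the gene of the endothelial adhesion protein CD31. The ratio of 85.0 was that of the 6-3-A6 tumor 4, and the next was 44.5 in the control IgG tumor 1. The input library of the 6-3-A6 tumor 4 held 43 Gpihbp1 counts and the lowest TMM factor of all libraries (0.68).

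Fabp4 (chr3:10269148-10273636, minus strand), the fatty acid binding protein of adipocytes and capillary EC, had the highest mean CPM of the 6 genes in both IP groups. In control IgG IP 1, Gpihbp1 (498 CPM) stood above Fabp4 (303 CPM). The values of Fabp4 in IP were 303, 307, 921, 293 and 370.0 CPM with control IgG and 688, 239, 901, 1058 and 515 CPM with 6-3-A6. In input they were 15.7, 84.1, 25.3, 45.4 and 61.5 CPM with control IgG and 32.1, 20.3, 36.5, 227 and 178 CPM with 6-3-A6. Every IP library lay above every input library, as for 4.34% of all genes. The gap was narrow, since 6-3-A6 input 4 reached 227 CPM and 6-3-A6 IP 2 was at 239 CPM. IP exceeded input by a log2 fold change of 3.01 (SE 0.44, 95% interval 2.08 to 3.95, edgeR adjusted p = 1.67e-05). The ratio in single tumors was 2.88 to 36.4 (median 9.12), lowest in the 6-3-A6 tumor 5 and highest in the control IgG tumor 3.

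Cd36 (chr5:17986688-18093799, minus strand), the fatty acid translocase, was at 4.51, 10.7, 18.9, 31.0 and 36.4 CPM in control IgG input and 13.6, 8.50, 9.97, 35.8 and 28.3 CPM in 6-3-A6 input. In IP it was at 50.5, 89.2, 227, 59.6 and 137 CPM with control IgG and 169, 22.9, 91.6, 192 and 135 CPM with 6-3-A6. Only 6-3-A6 IP 2, the library lowest in endothelial markers, fell within the range of the input libraries. The log2 fold change was 2.57 (SE 0.41, 95% interval 1.71 to 3.44, edgeR adjusted p = 4.48e-05), and the ratio was above 1 in 10 of 10 tumors (1.92 to 12.4, median 6.86).

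A promoter of Cd36 is shown because it is the one among the 6 genes that the RefSeq table of promoters used here holds, and because regulators of lipid uptake and Notch signaling bind known letters. The 250 bases before the start that this table gives lie at chr5:17835897-17836146 on the minus strand of GRCm38.p6. This start is inside the gene in the GENCODE annotation of GRCm38 (chr5:17781690-17888801), where other transcripts start further upstream, and the counts do not show which start was used. Capitals mark TGGGAA, the core letters of the Notch effector RBPJ, at position -43 from that start, and the reverse complement of AGGTCA, a nuclear receptor half-site, at position -228; both strands were searched and the matches do not overlap.
Cd36: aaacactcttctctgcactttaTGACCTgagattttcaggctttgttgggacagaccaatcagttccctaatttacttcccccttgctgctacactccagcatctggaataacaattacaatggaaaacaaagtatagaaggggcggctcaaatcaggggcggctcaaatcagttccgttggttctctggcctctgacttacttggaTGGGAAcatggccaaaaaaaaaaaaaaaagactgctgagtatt
TGGGAA occurred in 21.6% and AGGTCA in 14.0% of 32851 promoters of the same length, so each match is of a common kind and is a description of the letters, not of a binding site.

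Scarb1 (chr5:125354151-125418158, minus strand), the receptor for high-density lipoprotein, was at 56.7, 63.4, 42.3, 49.6 and 47.8 CPM in control IgG input and 59.4, 40.7, 41.6, 17.3 and 78.9 CPM in 6-3-A6 input. Its IP values were 129, 127, 131, 68.7 and 93.0 CPM with control IgG and 160, 42.0, 117, 174 and 108 CPM with 6-3-A6. Control IgG IP 4 and 6-3-A6 IP 2 lay within the range of the input libraries and the other 8 IP libraries above it. The difference was a log2 fold change of 1.21 (SE 0.24, 95% interval 0.71 to 1.70, edgeR adjusted p = 0.000398), and the ratio was above 1 in 10 of 10 tumors, at 1.03 in the 6-3-A6 tumor 2 and 10.1 in the 6-3-A6 tumor 4. The input library of the latter tumor held the lowest Scarb1 value and the lowest TMM factor (0.68) of all libraries. By its span Scarb1 overlapped Gm42633 on the same strand, which held 0 counts. How reads in the overlap were counted cannot be seen.

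Lpl (chr8:69333143-69360100, plus strand), which encodes the lipase itself, was at 71.4, 50.1, 53.6, 96.3 and 76.2 CPM in control IgG input and 44.1, 36.0, 38.1, 173 and 143 CPM in 6-3-A6 input. Its IP values were 95.9, 159, 53.9, 68.4 and 82.1 CPM with control IgG and 82.2, 30.3, 25.96, 49.1 and 336 CPM with 6-3-A6. The groups overlapped widely, and 6-3-A6 IP 5, the highest library, was also the IP library with the highest summed macrophage markers (9229 CPM) and lymphoid markers (139 CPM, against 18.4 to 35.5 CPM in the other 9 IP libraries). The difference between IP and input did not pass the test (log2 fold change 0.34, SE 0.40, 95% interval -0.51 to 1.19, edgeR adjusted p = 0.518), and IP exceeded input in 6 of 10 tumors. An enrichment of the size seen for Scarb1 lies just outside this interval.

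Fabp5 (chr3:10077608-10081667, plus strand), the fatty acid binding protein first known from epidermis and also found in macrophages and tumor cells, varied little between libraries, with a coefficient of variation of 14.2% to 25.0% within the 4 groups. This was the lowest of the 6 genes in 3 groups, and in control IgG input Scarb1 varied less (15.7%). In input it was at 129, 111, 84.0, 82.6 and 70.7 CPM with control IgG and at 95.1, 101, 120.3, 86.6 and 128 CPM with 6-3-A6. In IP it was at 76.4, 67.1, 97.0, 101 and 54.8 CPM with control IgG and at 84.3, 87.8, 114, 88.2 and 82.2 CPM with 6-3-A6. The fractions overlapped, with IP above input in 3 of 10 tumors and ratios between 0.594 and 1.22. Its log2 fold change was -0.24 (SE 0.13, 95% interval -0.52 to 0.03, edgeR adjusted p = 0.141), so that Fabp4 and Fabp5, relatives by sequence, stood apart in enrichment with intervals that do not overlap.

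**Figure D2:**
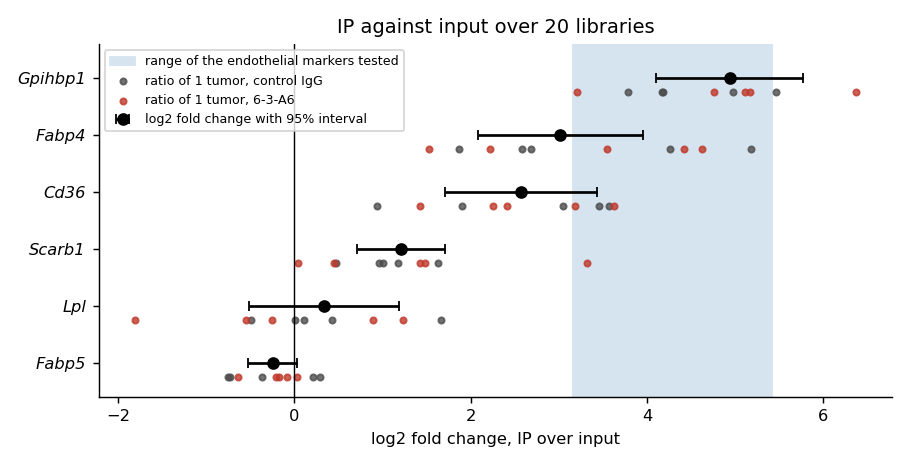
Log2 fold change of IP over input for each gene over 20 libraries with its 95% interval (black), the log2 ratio of each of the 10 tumors (small points) and the range of the endothelial markers tested (shaded, 3.16 to 5.42). Gpihbp1 lay inside the shaded range, Fabp4 and Cd36 below it with intervals that reach into it, Scarb1 further below, and the intervals of Lpl and Fabp5 included 0.

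Levels can be compared between genes only per length. Per kilobase of exon, Fabp4 was highest in control IgG IP at 490 ± 303 CPM (SD, n = 5), followed by Gpihbp1 at 135 ± 94.4, Fabp5 at 80.3 ± 19.9, Scarb1 at 43.5 ± 11.03, Cd36 at 31.8 ± 20.4 and Lpl at 22.3 ± 9.84 CPM. The order of the means was the same in 6-3-A6 IP. Of the 5 pairs of neighbors in it, Gpihbp1 and Fabp5, Scarb1 and Cd36, and Cd36 and Lpl differed by less than the larger SD in both IP groups. In control IgG input the order was another one, with Fabp5 highest at 96.7 ± 24.2 CPM per kilobase, then Fabp4 at 51.8 ± 30.8, Scarb1 at 20.6 ± 3.25, Lpl at 16.9 ± 4.54, Cd36 at 5.75 ± 3.79 and Gpihbp1 at 4.89 ± 2.02. Here Scarb1 and Lpl, and Cd36 and Gpihbp1, differed by less than the larger SD. In 6-3-A6 input the mean of Fabp4 (110 ± 108 CPM per kilobase) stood above that of Fabp5 (108 ± 17.5) and that of Lpl (21.1 ± 15.9) above that of Scarb1 (18.9 ± 9.12), and both differences, like that of Cd36 and Gpihbp1, were smaller than the larger SD. Reads were counted over whole gene spans, introns included, so the levels of long genes such as Cd36, with a span of 107112 bases, may be raised on this scale. Exon length here joined all annotated exons, 2095 bases for Gpihbp1 and 3536 for Cd36. Their coding transcripts used in the search for near-copies had 825 and 3016 bases, while both lengths were equal for the other genes. The differences of Gpihbp1 from Fabp5 in IP and from Cd36 in input thus depend on the length used.

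Among the 4 groups, the order of mean CPM placed both input groups below both IP groups for Gpihbp1, Cd36, Scarb1, Fabp4 and Lpl, and both IP groups below both input groups for Fabp5. With each of the 20 libraries left out in turn, this held every time for Gpihbp1, Cd36, Scarb1 and Fabp4. It did not hold for Lpl without 6-3-A6 IP 5, where the 6-3-A6 IP mean went from 105 to 46.9 CPM, below both input means (69.5 and 86.7 CPM), nor without control IgG IP 2 or 6-3-A6 input 1, 2 or 3. It did not hold for Fabp5 without control IgG input 1, whose group mean went from 95.5 to 87.1 CPM. For Gpihbp1 the means were 9.61 (6-3-A6 input), 10.2 (control IgG input), 282 (control IgG IP) and 329 CPM (6-3-A6 IP). The ranges of neighbors in this order overlapped except at 1 step each for 4 genes, from control IgG input to control IgG IP for Gpihbp1, Cd36 and Scarb1 and from 6-3-A6 input to control IgG IP for Fabp4. The first of these pairs of groups was free of overlap in this direction for 8.63% of all 14488 genes and the second for 6.28%. Over all libraries the input and IP values of Cd36 and Scarb1 overlapped, as given above. Within the IP groups the coefficient of variation was 14.2% to 24.7% for Fabp5 and 44.1% to 125% for Lpl.

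The second question was whether blocking Notch4 changed these genes in EC. Within the 6 IP libraries that the study kept, Gpihbp1 was 2.94-fold and Fabp4 2.67-fold higher with 6-3-A6 than with control IgG, and the other 4 genes did not pass the test. The adjusted p-values in these 6 libraries are conditional on the study's choice of libraries. These 2 of 6 compare with 2.57% of 13999 genes called higher. In all 10 IP libraries none of the 6 genes was called, nor was any of 13602 genes (0%).

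For Gpihbp1 the 3 kept control IgG libraries were at 242, 76.3 and 116 CPM and the 3 kept 6-3-A6 libraries at 459.9, 455 and 384 CPM. The groups did not overlap, which was also the case for 13.6% of all genes in this direction. The log2 fold change was 1.56 (SE 0.36, 95% interval 0.55 to 2.56, edgeR adjusted p = 0.0380). The control IgG libraries not kept, 1 and 3, held 498 and 477 CPM, more than any 6-3-A6 library, and the 6-3-A6 library 2, not kept, held 73.8 CPM, less than any control IgG library. The 6-3-A6 library 5, also not kept, held 270.2 CPM, more than any kept control IgG library. Over all 10 libraries the log2 fold change was 0.21 (SE 0.55, 95% interval -1.05 to 1.47, edgeR adjusted p = 1.00).

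For Fabp4 the kept libraries were at 307, 293 and 370.0 CPM with control IgG and 688, 901 and 1058 CPM with 6-3-A6. The groups again did not overlap, as for 13.6% of all genes in this direction. The log2 fold change was 1.42 (SE 0.24, 95% interval 0.75 to 2.08, edgeR adjusted p = 0.0179). Of the libraries not kept, control IgG 1 (303 CPM) lay within the range of the kept control IgG libraries and control IgG 3 (921 CPM) within that of the kept 6-3-A6 libraries. The 6-3-A6 library 5 (515 CPM) lay above every kept control IgG library and the 6-3-A6 library 2 (239 CPM) below every control IgG library. Over all 10 libraries the log2 fold change was 0.62 (SE 0.41, 95% interval -0.34 to 1.57, edgeR adjusted p = 1.00), the highest of the 6 genes.

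Markers of several cell types moved along with the 2 calls. Among all genes 2.57% were called higher and 2.04% lower in this comparison. In the kept libraries the summed endothelial markers were 4581, 1428 and 2602 CPM with control IgG and 5719, 4438 and 5445 CPM with 6-3-A6; 5 of 16 were called higher, the median log2 fold change was 0.85, and Pecam1 itself did not pass (log2 fold change 0.73, edgeR adjusted p = 0.356). The summed macrophage markers were 7658, 7850.3 and 6799.6 CPM with control IgG and 4041, 3729 and 3317 CPM with 6-3-A6, with 6 of 13 called lower and a median of -0.96, beside -0.05 over all genes. Of the erythroid markers 3 of 4 were called higher (median 3.21), with summed levels of 27.7, 45.8 and 20.6 CPM in control IgG and 554, 313 and 29.8 CPM in 6-3-A6. Of the fibroblast markers 3 of 10 were called lower (median -1.01), of the epithelial markers 2 of 6 (median -0.98), and of the mural cell markers 1 of 8 was called higher and 1 lower (median -0.69). None of 10 adipocyte markers (median -0.87) and none of 5 lymphoid markers (median -0.60) was called. The part of the cell types other than EC in the 2 calls was not tested.

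With the mean of the endothelial markers as a covariate, neither gene was called: the log2 fold change of Gpihbp1 went from 1.56 to 0.58 (edgeR adjusted p = 0.820) and that of Fabp4 from 1.42 to 1.36 (edgeR adjusted p = 0.465), and 1 of all genes was called in this fit. Marker level and treatment moved together in these 6 libraries, and the part of endothelial yield in the 2 calls cannot be told apart from that of treatment with them alone.

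When each of the 6 libraries was left out in turn, Gpihbp1 was not called in 5 cases (edgeR adjusted p = 0.0738 without control IgG 4, 0.0908 without control IgG 5, and 0.0869, 0.107 and 0.0888 without 6-3-A6 1, 3 and 4). Fabp4 was not called without 6-3-A6 3 (0.0671) or 6-3-A6 4 (0.0512). The log2 fold change stayed between 1.27 and 2.18 for Gpihbp1 and between 1.27 and 1.57 for Fabp4 in these 6 fits, each of which has 1 library fewer.

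Lpl was at 159, 68.4 and 82.1 CPM in the kept control IgG libraries and at 82.2, 25.96 and 49.1 CPM in the kept 6-3-A6 libraries. Its log2 fold change of -1.0 (SE 0.41, 95% interval -2.13 to 0.13) did not pass the test (edgeR adjusted p = 0.201), and the groups overlapped at 82 CPM. The value was -1.48 to -0.51 without single libraries and -1.88 with the endothelial covariate (edgeR adjusted p = 0.326), and Lpl was called in none of these fits. Without the filter on low counts Lpl was called (edgeR adjusted p = 0.000977). More of all genes were called in that fit as well, as given below, and the cause was not tested. Over all 10 IP libraries the sign was positive (0.20, 95% interval -1.26 to 1.66), since 6-3-A6 IP 5, at 336 CPM, came in.

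Cd36 and Scarb1 had similar values in the kept libraries. The log2 fold change was 0.63 for Cd36 (SE 0.34, 95% interval -0.31 to 1.57, edgeR adjusted p = 0.343) and 0.61 for Scarb1 (SE 0.26, 95% interval -0.10 to 1.32, edgeR adjusted p = 0.212), and the groups overlapped for both. Fabp5 was closest to 0, at 0.34 (SE 0.24, 95% interval -0.34 to 1.01, edgeR adjusted p = 0.498). Over all 10 libraries these 3 genes stood between 0.10 and 0.19, and a 2-fold change in either direction lay outside the interval for Scarb1 (-0.62 to 0.85) and Fabp5 (-0.23 to 0.61) and inside it for Cd36 (-1.07 to 1.28).

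**Figure D3:**
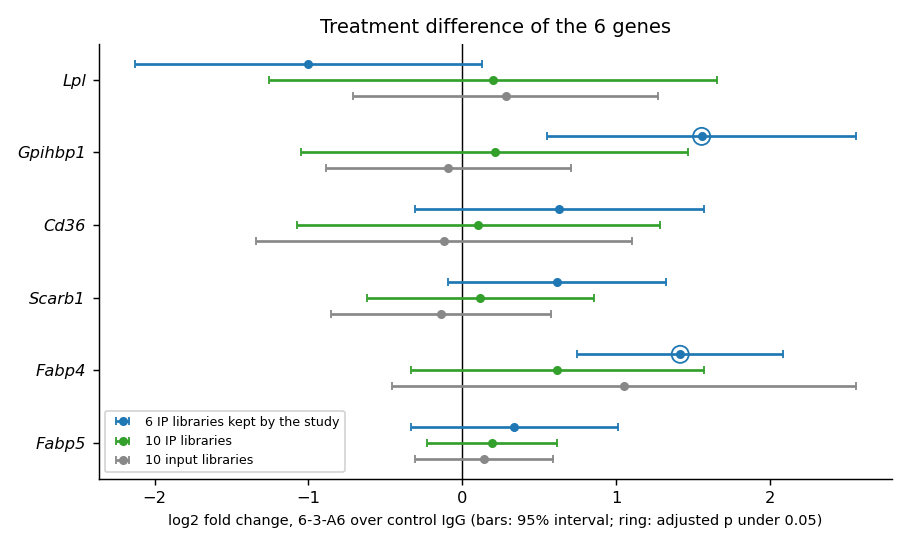
Log2 fold change of 6-3-A6 over control IgG with its 95% interval for each gene, in the 6 kept IP libraries (blue), all 10 IP libraries (green) and the 10 input libraries (grey); rings mark an edgeR adjusted p under 0.05. Gpihbp1 (1.56) and Fabp4 (1.42) are ringed in the kept libraries, and all intervals of the other 2 comparisons include 0.

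In whole tumor (input) none of the 6 genes and none of 13683 genes (0%) was called between treatments by edgeR or DESeq2, where 180 genes (1.32%) had an unadjusted edgeR p under 0.05. For all 10 IP libraries the same tools called none, and 292 genes (2.15%) had an unadjusted p under 0.05, none of the 6 among them. Fabp4 had the largest difference in input, a log2 fold change of 1.05 (SE 0.65, 95% interval -0.45 to 2.56, edgeR adjusted p = 1.00). It came from 6-3-A6 input 4 and 5, at 227 and 178 CPM, with the other 3 libraries of the group at 20.3 to 36.5 CPM, in the range of control IgG (15.7 to 84.1 CPM). The same 2 libraries were highest for Lpl (173 and 143 CPM), whose log2 fold change was 0.28 (SE 0.43, 95% interval -0.71 to 1.27). Of these 2, 6-3-A6 input 4 had the lowest TMM factor of all libraries (0.68). The remaining 4 genes stood between -0.14 and 0.14.

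Markers of adipocytes, the cells of the fat pad in which the tumors grew, were also highest in those 2 libraries. The summed level of the 10 adipocyte markers was 344 and 361 CPM in 6-3-A6 input 4 and 5, and 17.8 to 188 CPM in the other 8 input libraries. Cd36 was at 35.8 and 28.3 CPM in these 2 libraries and at 8.50 to 13.6 CPM in the other 3 of the group. In control IgG input it was at 31.0 and 36.4 CPM in libraries 4 and 5 (adipocyte sums of 121 and 188 CPM), at 10.7 CPM in library 2 (164 CPM), and at 4.51 and 18.9 CPM in libraries 1 and 3 (22.6 and 17.8 CPM). Lymphoid markers were highest in the same 2 input libraries as well (110 and 252 CPM, against 36.7 to 78.4 CPM in the other 8). The macrophage sum was the highest of all input libraries in 6-3-A6 input 5 (15448 CPM) and the next to lowest in 6-3-A6 input 4 (6963 CPM). The part of these cell types in the input differences of Fabp4 and Lpl was not tested.

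**Figure D4:**
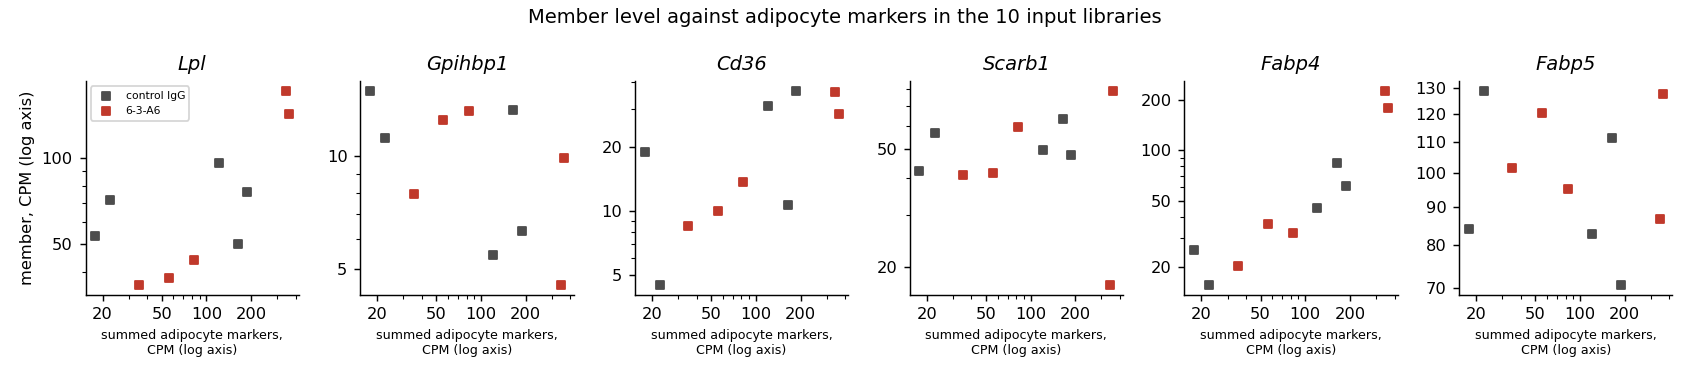
Level of each gene in CPM against the summed CPM of 10 adipocyte markers in the 10 input libraries, both on log axes, with control IgG in grey and 6-3-A6 in red. The 2 libraries at the right (344 and 361 CPM of adipocyte markers) are highest for Fabp4 and Lpl, and one of them is lowest for Gpihbp1 and Scarb1.

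The difference between the treatment effects in IP and input was tested itself as an interaction over all 20 libraries, first without a term for the tumor that each IP and input library share. It ranged from a log2 value of -0.46 for Fabp4 to 0.30 for Gpihbp1, and the 95% intervals of all 6 genes included 0 (edgeR adjusted p = 1.00 for each). No gene of 14488 was called (0%) by edgeR or DESeq2, and 125 (0.863%) had an unadjusted edgeR p under 0.05. In this fit the interval of Fabp4 ran from -2.22 to 1.31. With the tumor as a block, the interaction was -0.00045 for Fabp4 (95% interval -1.48 to 1.48) and ranged from -0.41 for Lpl (95% interval -1.66 to 0.84) to 0.38 for Gpihbp1 (95% interval -0.74 to 1.49). The lowest gene thus depends on the block, all 6 intervals again included 0 (edgeR adjusted p = 1.00 for each), and no gene was called, with 140 at an unadjusted p under 0.05. A 2-fold difference in either direction lay outside the interval of Fabp5 in both fits.

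Across the 10 IP libraries the level of each gene was set beside the mean of the endothelial and of the macrophage markers. Whether the relations of the 6 genes differ from each other was not tested. Of 12 relations between a gene and a marker mean, 3 passed a permutation test with Benjamini-Hochberg adjustment. Gpihbp1 followed the endothelial marker mean with Pearson's r = 0.979 (permutation p = 5e-05, adjusted 0.0006) and Spearman's rho = 0.964 (permutation p = 7e-05, adjusted 0.00084). Scarb1 did so with r = 0.918 (permutation p = 0.00016, adjusted 0.00096) and rho = 0.855 (permutation p = 0.003, adjusted 0.018). Lpl followed the macrophage marker mean, with r = 0.819 (permutation p = 0.00339, adjusted 0.0136) and rho = 0.818 (permutation p = 0.00608, adjusted 0.0243), and had r = 0.22 with the endothelial mean.

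Without the 2 libraries farthest from the median marker mean, Gpihbp1 still passed (r = 0.958, permutation p = 0.00138, adjusted 0.0166), while Scarb1 (r = 0.720, adjusted permutation p = 0.172) and Lpl (r = 0.782, adjusted permutation p = 0.141) did not pass with 8 libraries. The r of Lpl thus stayed near its value over 10 libraries, and that of Scarb1 fell from 0.918. Fabp4 (r = 0.648) and Cd36 (r = 0.627) with the endothelial mean missed the threshold over 10 libraries, both at an adjusted permutation p of 0.123, and over 8 libraries r was 0.354 for Fabp4 and -0.10 for Cd36. Fabp5 had r = 0.03 over 10 libraries (adjusted permutation p = 0.933) and 0.666 over 8 (adjusted permutation p = 0.238), so its value over 10 depends on the 2 libraries left out. With 5 libraries per treatment, no relation was computed within a treatment group.

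**Figure D5:**
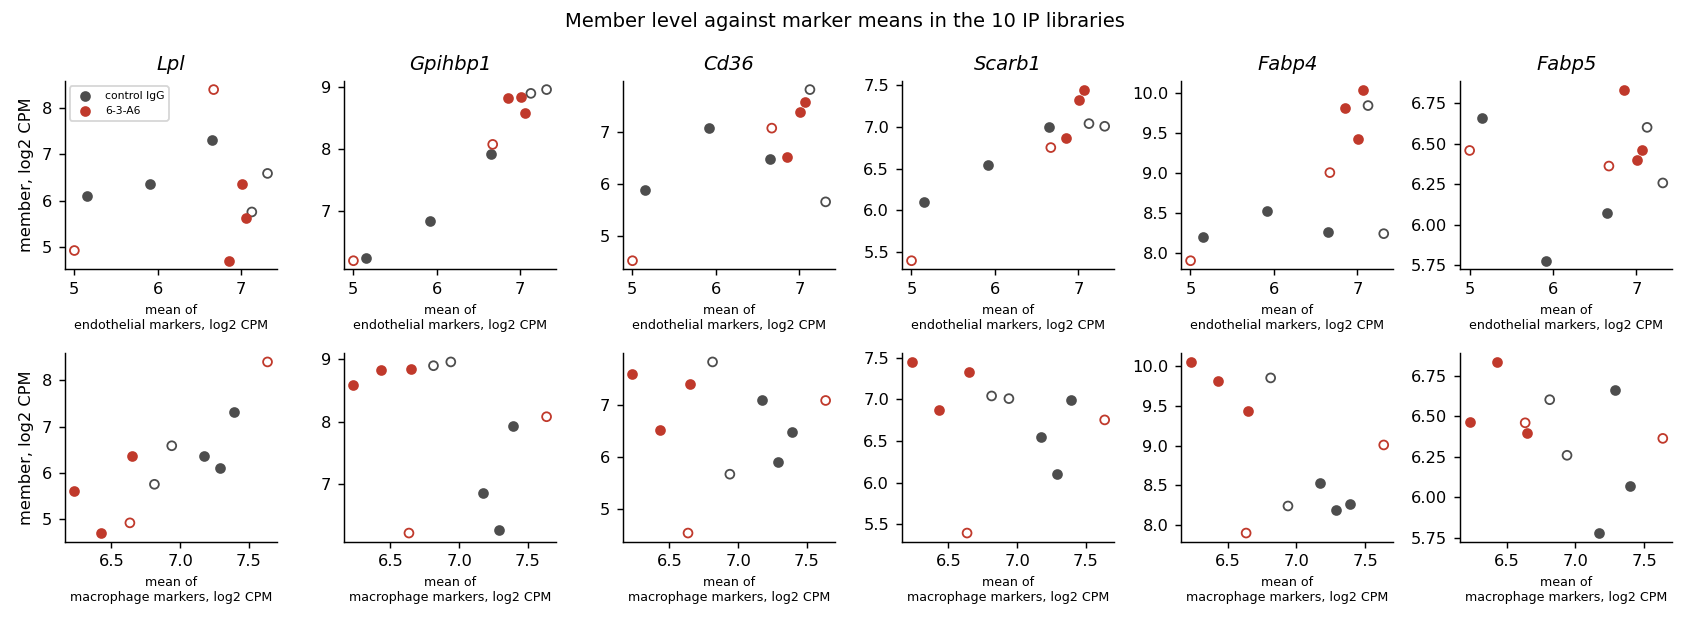
Log2 CPM of each gene against the mean log2 CPM of the endothelial markers (upper row) and of the macrophage markers (lower row) in the 10 IP libraries; filled circles are libraries kept by the study, open circles the others, control IgG in grey and 6-3-A6 in red. Gpihbp1 rises with the endothelial mean (r = 0.979) and Lpl with the macrophage mean (r = 0.819).

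The genes whose log2 CPM was most like that of each of the 6 over the same 10 libraries were sought among 12838 genes, as a description with no test. For Gpihbp1 they were Nectin2 (r = 0.988), the tight junction gene Cldn5 (0.986) and Sema3f (0.985). For Lpl they were Ermp1 (0.971), the macrophage Fc receptor gene Fcgr1 (0.962) and St14 (0.957), and for Cd36 they were Akr1c14 (0.953), Cd34 (0.942) and Jmjd8 (0.935). Scarb1 was closest to Fkbp10 (0.969), Ebf1 (0.968) and Layn (0.966), Fabp4 to Zfp979 (0.958), Ubxn2a (0.9502) and Trim44 (0.949), and Fabp5 to Elmod3 (0.910), Supt4a (0.890) and Fam32a (0.878). Cldn5 and Fcgr1 belong to the endothelial and macrophage marker lists, and no other gene on these 6 lists of 3 does.

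Other genes of lipid uptake and use were read from 7 lists, also chosen with earlier results of these data known. Between IP and input, 22 of the 79 genes tested on them were called higher (27.8%) and 13 lower (16.5%), beside 19.6% higher and 20.8% lower of all genes. The 22 and the 79 include Tcf15, which passed the filter through its IP libraries alone. The regulators of lipoprotein lipase included Angptl4, its secreted inhibitor, which rose by a log2 fold change of 3.04 (SE 0.32, edgeR adjusted p = 1.41e-07). Pcsk6, a proprotein convertase, rose by 3.38 (SE 0.32) and Lipc, hepatic lipase, by 1.09 (SE 0.26); of 9 genes tested on this list 3 were higher, none lower, and the median was -0.14, beside -0.06 over all genes. Of 11 genes of fatty acid transport, binding and activation, only the acyl-CoA synthetase Acsl4 was called (0.82, SE 0.16), with a median of 0.09.

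Of 14 transcriptional regulators 4 were called higher and 10 were not called, beside 19.6% of all genes called higher. Meox2 (4.68, SE 0.29), which acts together with Tcf15 in the capillary EC of the heart, had the highest value of the list, and Pparg (2.10) and Foxo1 (1.26) the lowest of those called; the median of the list was 0.04. The count of 4 includes Tcf15, the other gene called. Tcf15 passed the filter through its IP libraries alone, which favored a call as higher. It held 4 and 9 counts in all over the 5 libraries of control IgG and 6-3-A6 input, near the limit that a count of 0 allows, against 107 and 199 counts in IP, so no fold is given for it. Of the 5 genes of the VEGF-B list, Aplnr (4.39), Apln (3.25) and the receptor gene Flt1 (3.23) were higher in IP, while Vegfb, the ligand, was lower (-1.12, SE 0.19), and the median was 3.23.

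Among lipoprotein and scavenger receptors 2 of 14 were higher, Scarf1 (2.50) and Acvrl1 (2.07), which binds low-density lipoprotein in EC, and 4 were lower, with Msr1 (-0.60), the scavenger receptor of macrophages, and Lrp8 (-0.54) the lowest. The median was -0.40, and over all genes 19.6% were higher and 20.8% lower, so these counts lay near the background. Of 18 genes of oxidation, esterification and lipid droplets, 8 were higher and 2 lower (median 0.27), led by Mgll, monoacylglycerol lipase (3.77, SE 0.32), and Hadhb, a subunit of the mitochondrial trifunctional protein (0.88), with the acyltransferases Gpat3 (-0.76) and Gpat4 (-0.34) lower. Cholesterol efflux and storage went mostly the other way, with 6 of 8 lower, Npc2 (-0.99) and Apoe (-0.82) lowest, and Abcg1, an exporter of cholesterol to high-density lipoprotein, higher (1.52, SE 0.14); the median was -0.73. In the same comparison 9 of 13 macrophage markers were lower (median -0.67) and 16 of 16 endothelial markers higher, and the part of these cell types in the values of the 7 lists was not tested. Of the genes on all lists, markers included, 10 held 0 counts in every library, Cav1, Lipe and Angptl8 among them. By the spans in the table all 10 overlapped another gene and 7 lay wholly inside one, and their levels are not known from this table.

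Between treatments in the 6 kept IP libraries, the same lists held 7 genes called higher (8.97%) and 4 called lower (5.13%) of 78 tested, beside 2.57% higher and 2.04% lower of all 13999 genes. Higher were Angptl4 (log2 fold change 1.29, SE 0.26, edgeR adjusted p = 0.0255), Mgll (1.60, SE 0.27, edgeR adjusted p = 0.0179), Apln (1.33, SE 0.29, edgeR adjusted p = 0.0303) and 4 of 14 transcriptional regulators, Tcf15 with the largest value (1.51, SE 0.33, edgeR adjusted p = 0.0322) and Ppard with the smallest (0.77, SE 0.18, edgeR adjusted p = 0.0388). The 4 lower genes were all receptors, of 14 on their list, from Sorl1 (-1.63, SE 0.26, edgeR adjusted p = 0.0178) to Vldlr (-0.83, SE 0.20, edgeR adjusted p = 0.0417). List medians were 0.02 for lipases and their regulators, 0.38 for transcriptional regulators, -0.84 for receptors, 0.04 for oxidation and droplets, -0.48 for cholesterol efflux and storage, 0.51 for the VEGF-B list and -0.13 for fatty acid transport, beside -0.05 over all genes. The shifts of the cell type markers given above apply to these genes as well, and in all 10 IP libraries none of them was called.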

How the data were processed

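RNA from the input and the anti-HA IP of 10 tumors was sequenced as 100-base single reads. The authors aligned reads with STAR 2.7.4a, counted them with featureCounts (2.0.1 and 1.5.2 are both named in the submitters' processing notes) and deposited raw counts per gene for 20 libraries. The methods name mm10, while positions in the table are those of GRCm39, and the length of each of 55789 genes with a single interval equals its whole span, so intronic reads were counted. A further table holds a size-factor normalized signal for 6 IP libraries, deposited by the authors, which equals the raw counts divided by 1 constant per library for 100% of genes with counts (relative tolerance 1e-06); it identified the libraries kept. The fold changes and p-values of the authors in that table were not used. Columns of per-sample values that could not be tied to a sample numbered 0.

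The libraries were grouped by title, source name and cell type; a free-text description of the 6-3-A6 libraries names the opposite fraction and was not followed. The raw counts were tested over all genes with edgeR 4.0.16 in R 4.3.3 (TMM, filterByExpr, Benjamini-Hochberg adjustment of quasi-likelihood p values, threshold 0.05). The comparisons were IP against input with treatment as a term, 6-3-A6 against control IgG in 6 kept IP, all 10 IP and 10 input libraries, and the interaction. SE was the log2 fold change divided by the square root of F, with 95% intervals on the residual degrees of freedom. For log2 CPM the prior count was 2. Relations used 100000 permutations, two-sided (scipy 1.17.1). Near-copies were sought with BLAST 2.17.0 (at least 95% identity over 100 bases). Exon lengths and coding sequences came from a GENCODE annotation of GRCm38, and promoters from RefSeq.

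The members and lists were chosen with earlier results of these data known. The genes named were the 6 members and, from each list and comparison, the called genes with the largest and smallest log2 fold change (the 2 largest and 2 smallest for IP against input), a few defining markers, and the 3 genes most like each member. Lipe, Cav1 and Angptl8 were named after their values were seen.

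No 2 libraries of a group agreed within sampling noise (lowest median chi-square over genes 2.23 for 40 pairs, where sampling noise alone gives 0.455). IP and input with the same number come from the same tumor by the protocol. The correlation of their deviations was 0.0464 to 0.699 with control IgG and -0.0777 to 0.513 with 6-3-A6, and 4 of 5 libraries in each group correlated best with their own number. Each fit was tested on simulated data with known changes before it was used. Of 100 simulated 2-fold changes, 79 were recovered for IP against input and 40 between treatments in the kept IP libraries. In all IP libraries 36 were recovered, in input 29 and in the interaction 9. Of 100 simulated 4-fold changes, 99, 94, 94, 94 and 73 were recovered in the same order. False calls numbered 8, 11, 13, 2 and 1. The absence of a call between treatments alone therefore does not exclude a 2-fold change. The floor of 3 counts covers counting error only. DESeq2 1.42.0, other size factors, no filter, a replicate block, a marker covariate, other subsets and leaving out each library were run as alternatives.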

Additional observations from a re-analysis of the deposited data

Results flagged for a closer look

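Of 24 groups of 5 libraries (6 genes in 4 groups), 2 held a library whose gap to the next exceeded Dixon's critical value of 0.71 on log2 CPM, where chance flags about 1 in 20. Fabp4 in control IgG IP 3 stood at 921 CPM, with a gap ratio of 0.797, and the other 4 libraries lay between 293 and 370.0 CPM. This library is one of those the study did not keep. Fabp5 in 6-3-A6 IP 3 stood at 114 CPM, with a gap ratio of 0.784, and the other 4 lay between 82.2 and 88.2 CPM.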

How the results depend on the processing

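The 4 calls between IP and input held in all 19 settings, and Lpl and Fabp5 were called in none. For Lpl the sign reversed in the tumors kept by the study (-0.10), and leaving out single tumors gave -0.052 to 0.64. All genes called were 5856, 7394 with the replicate block on the tumor, 6715 by DESeq2 and 4965 to 6054 without single tumors, and 3416 with the kept tumors only, 2163 with control IgG only and 2507 with 6-3-A6 only, fits with fewer libraries.

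In the 6 kept IP libraries the members called were 0 with the endothelial covariate and 0 to 2 without single libraries, and Scarb1 reversed with the covariate (-0.031). All genes called were 646 by edgeR, 1194 by DESeq2, 1459 without the filter, 1 with the covariate and 9 to 653 without single libraries; the cause was not tested.

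In all 10 IP libraries the sign reversed for Lpl with a replicate block on the shared number (-0.48) and for Cd36 (-0.21) and Scarb1 (-0.044) with the covariate. Leaving out single libraries gave -0.99 to 0.48 for Lpl, -0.021 to 0.50 for Gpihbp1, -0.11 to 0.52 for Cd36 and -0.051 to 0.33 for Scarb1. In input it gave -0.12 to 0.48 for Lpl, -0.24 to 0.087 for Gpihbp1, -0.46 to 0.20 for Cd36 and -0.38 to 0.074 for Scarb1, and in the interaction -1.03 to 0.49 for Lpl, -0.14 to 0.66 for Cd36, -0.12 to 0.55 for Scarb1, -0.88 to 0.17 for Fabp4 and -0.095 to 0.21 for Fabp5. None was called in any of these.

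The replicate block changed no call of a member; the 6 kept libraries share only the number 4 between treatments, so no paired analysis was possible there. Between treatments, same-numbered libraries correlated at -0.191 to 0.366 in IP and -0.326 to 0.242 in input, and 1 and 0 of 5 matched their own number best. Leaving out the tumors of the 2 IP libraries lowest in endothelial markers, chosen after seeing the data, left the same 4 members called between IP and input (5264 genes in all) and none between treatments. Of 3 relations that passed, 1 did without the 2 farthest libraries, also chosen after seeing the data.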
